A study of Mus musculus with 24 samples.

Results

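The levels of 10 genes of fatty acid synthesis and desaturation, Acly, Acaca, Acacb, Fasn, Elovl6, Scd1, Scd2, Fads2, Me1 and Srebf1, were followed in the livers of 24 mice. The genes were listed by name as enzymes of the pathway and its main transcription factor, not by a cut on their values. All 10 were among the 1999 of 56748 genes of the count table that were used here. Liver RNA selected for poly(A) tails was sequenced from 4 groups of mice, and every group held 3 males and 3 females. GHR+/+ mice carry the working gene of the growth hormone receptor, and GHR-/- mice, a model of Laron syndrome, lack the receptor in every tissue. The other groups were GHR-/- mice too. At 4 to 5 weeks of age they had been given, into the peritoneum, 1 dose of 40000000000 vector genomes of an adeno-associated virus of serotype 8 (AAV8). In AAV-HLP-mGHR mice the virus carried the mouse receptor and in AAV-HLP-Luc mice luciferase, in each case behind HLP, a promoter active in liver. The livers of injected mice were taken at an age of 30 to 31 weeks, 25 to 26 weeks after the dose, and those of uninjected mice at 21 weeks. Whether the mice were fed or fasted at that time is not given in the sources used here. Age and injection cannot be told apart wherever an injected group is set against an uninjected one. By its design the promoter limits the receptor to the liver.

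In hepatocytes, surplus carbohydrate is turned into fat by de novo lipogenesis. Citrate exported from mitochondria is split to acetyl-CoA, carboxylated to malonyl-CoA, condensed to palmitate, lengthened to stearate and desaturated to oleate, while malic enzyme and other reactions provide the NADPH. Insulin drives the pathway through the transcription factor SREBP-1c and glucose through ChREBP, and growth hormone, which signals in hepatocytes through its receptor, JAK2 and STAT5, is known as a restraint on liver fat.

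The stretches of 120 bases ahead of the start sites of Elovl6, Acacb, Acly and Fasn are shown because the levels of these genes went up and down together from mouse to mouse, as given further on. They are RefSeq sequences on GRCm38.p6, written 5′ to 3′ on the strand of the gene. Capitals mark 2 motifs, each searched on both strands. One is the CCAAT box, whose letters on the other strand are ATTGG. The other is the GC box, GGGCGG, which reads in reverse complement as CCGCCC.
Elovl6: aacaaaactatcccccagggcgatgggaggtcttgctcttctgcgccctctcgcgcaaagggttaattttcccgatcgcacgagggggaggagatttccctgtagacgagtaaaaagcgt
Acacb: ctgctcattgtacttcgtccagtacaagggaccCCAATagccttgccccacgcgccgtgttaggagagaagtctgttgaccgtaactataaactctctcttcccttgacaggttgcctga
Acly: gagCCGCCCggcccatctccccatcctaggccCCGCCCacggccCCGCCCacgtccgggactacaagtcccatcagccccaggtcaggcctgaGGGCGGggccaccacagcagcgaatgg
Fasn: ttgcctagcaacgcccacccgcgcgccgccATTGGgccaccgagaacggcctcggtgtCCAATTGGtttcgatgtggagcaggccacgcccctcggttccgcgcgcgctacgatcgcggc
The windows lie at chr3:129532266-129532385 (+) for Elovl6, chr5:114165398-114165517 (+) for Acacb, chr11:100528001-100528120 (-) for Acly and chr11:120824548-120824667 (-) for Fasn. The start sites of Elovl6 and Acly are the outer ends of the RefSeq genes, that of Fasn lies 619 bases and that of Acacb 19197 bases inside. The start site listed for Acaca lies 65803 bases inside its gene, and its window is not printed. Scd1 and Scd2 were not matched.

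In these windows a CCAAT box lay at -87 in Acacb and at -90, -62 and -59 in Fasn, counted from the start site, and the last pair overlaps by 2 bases. GC boxes lay at -117, -88, -76 and -27 in Acly. Windows of 120 bases held a CCAAT box in 21.3% and a GC box in 26.5% of 32851 RefSeq start sites, so these matches are common. No match to the STAT5 motif TTCNNNGAA, the sterol regulatory element core TCACNCCAC (GTGGNGTGA on the other strand) or the E-box CACGTG was found in the 300-base windows of the 8 genes matched, which spanned 11 start sites. Among all 300-base windows these letters were found in 8.30%, 1.24% and 7.15%.

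The libraries held 26453904 to 38194053 reads within the 1999 genes (median 29715947). Normalized read counts below are reads divided by a size factor per library (median of ratios), and a difference is given on the log2 scale from limma-voom with its standard error (SE). A gene was called at a limma adjusted p (Benjamini-Hochberg over all genes tested) under 0.05. Each mouse gave 1 library, so every value is 1 mouse. Ghr, the targeted gene, had 18665 to 27559 normalized reads in GHR+/+ mice and 2052 to 2654 in GHR-/- mice, a difference of 3.26 (SE 0.10, limma adjusted p = 5.1e-10). The groups did not overlap. In AAV-HLP-mGHR mice Ghr lay between 2615 and 4968 normalized reads against 1416 to 3257 in AAV-HLP-Luc mice (difference 0.63, SE 0.21, limma adjusted p = 0.176). The hepatocyte markers Alb, Apoa1, Ttr, Hnf4a, Cps1 and Serpina1a were all abundant, with a sum of 2802120 to 5660090 normalized reads over the 24 livers.

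GHR+/+ livers differed from GHR-/- livers in 3 of the 10 genes. Acacb, which encodes the acetyl-CoA carboxylase of the mitochondrial outer membrane, and Acly, the citrate-cleaving enzyme at the head of the pathway, were higher with an intact receptor, 2.78-fold and 1.93-fold. Scd2, a stearoyl-CoA desaturase best known from brain, was 13-fold lower. Over all 1999 genes 24.6% were called in this comparison, 11.9% higher and 12.7% lower, so the share of the 10 genes called was close to that background. Their median difference was 0.15, beside 0.01 over all genes, and 8 of 10 differences were positive. At an unadjusted limma p under 0.05 there were 4 of the 10 genes and 39.0% of all genes.

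**Figure D1:**
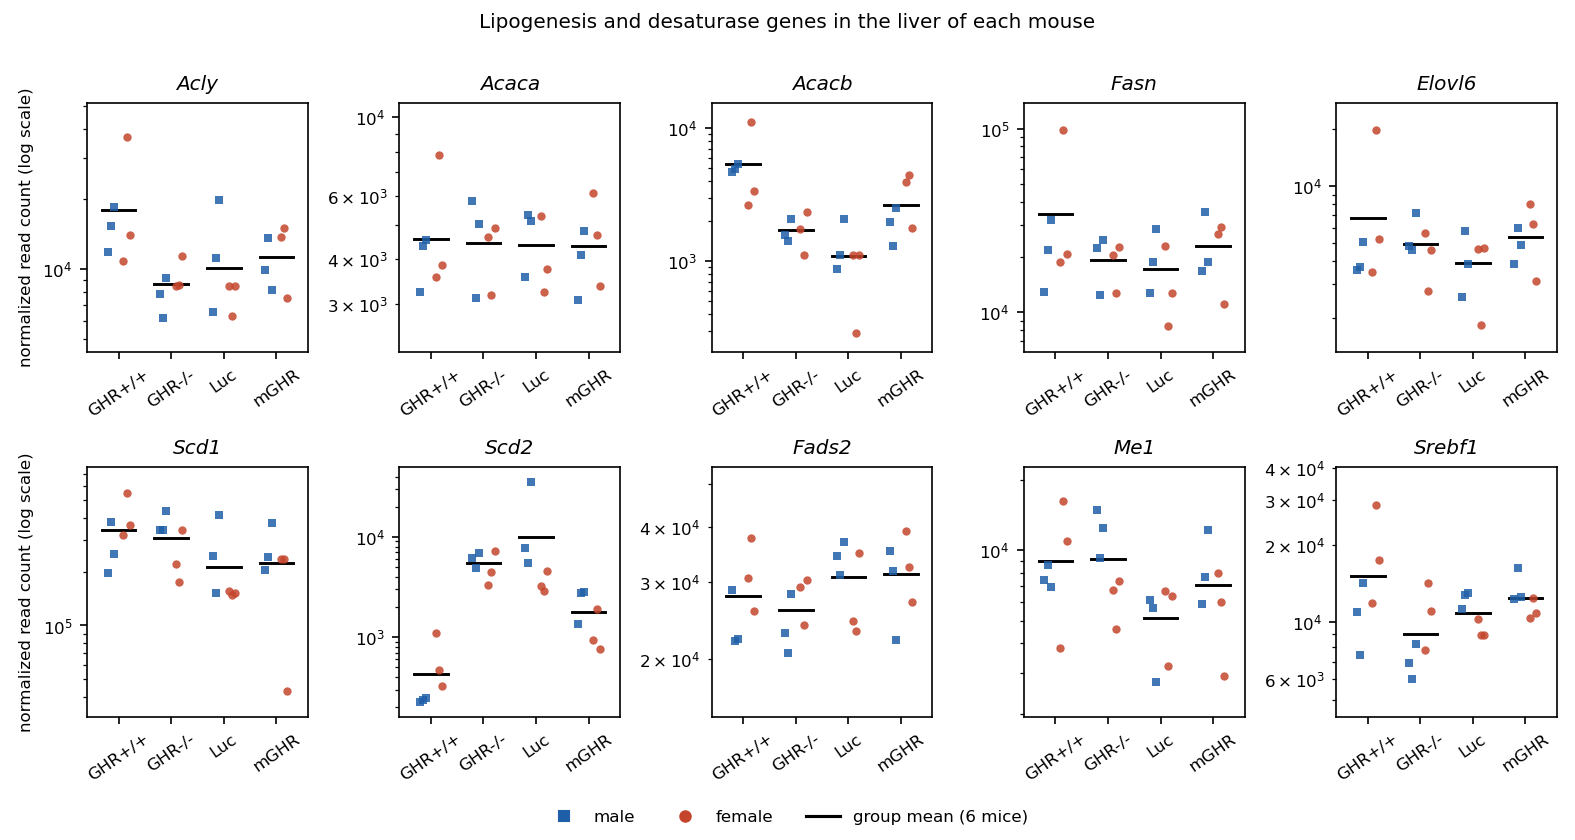
Normalized read count of each gene (log scale, 1 panel per gene) in each mouse, by group, with males as squares, females as circles and the mean of 6 mice as a bar. Scd2 lay at 225 to 1087 in GHR+/+ mice and at 3304 to 7267 in GHR-/- mice, and 1 GHR+/+ female stood at the top of 8 of the 10 panels.

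Scd2 showed the largest contrast of the set. Its normalized read counts in GHR+/+ mice were 225, 235 and 246 in the males and 1087, 473 and 326 in the females. In GHR-/- mice they were 6131, 4884 and 6969 in the males and 3304, 4457 and 7267 in the females. Every GHR+/+ mouse was below every GHR-/- mouse, and the GHR+/+ males lay within a narrow band. The difference was -3.70 (SE 1.10, limma adjusted p = 0.0272), and an exact permutation test of the 6 against 6 mice gave p = 0.00216, the smallest it can give. Groups that did not overlap were found in 6.7% of all genes with GHR+/+ higher and in 7.05% with GHR+/+ lower. The lowest mean count of any gene used was 1123 over the 24 livers, while the Scd2 mean in GHR+/+ mice was 432 normalized reads. Scd2 thus reached the level of the genes used only through the groups where it was high. Its tests and lack of overlap against GHR+/+ mice therefore only describe the values, and the shares come from the same abundant genes. Over both groups 13 of 1999 genes had a mean at or below that of Scd2 in GHR+/+ mice. The voom weights of Scd2, which set how much each library counts, were 0.24 to 0.46 in GHR+/+ mice and 26.2 to 27.6 in GHR-/- mice. With limma-trend, which does not use such weights, the difference was -3.88 (SE 0.36, limma adjusted p = 4.9e-05). The voom call was lost when any single GHR+/+ mouse was left out (limma adjusted p = 0.0581 to 0.0680) and in a fit over all 24 libraries (limma adjusted p = 0.371), with a difference between -4.13 and -3.58 in each of these.

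In vector-treated mice the same order was seen for Scd2, with more scatter. AAV-HLP-Luc mice had 7657, 5441 and 35570.2 normalized reads in the males and 3267, 2876 and 4609 in the females. AAV-HLP-mGHR mice had 1343, 2768 and 2820.3 in the males and 944, 1927 and 768 in the females. Every AAV-HLP-mGHR mouse was below every AAV-HLP-Luc mouse, although the nearest pair, at 2820.3 and 2876, lay close together. The difference was -2.12 (SE 0.62), a 4.33-fold lower level with the receptor vector, and it did not pass over all genes (limma adjusted p = 0.119), while the exact permutation test for this gene alone gave p = 0.00216. It passed in a fit over all 24 libraries (-2.15, limma adjusted p = 0.0268) and with sex as a covariate (-2.13, limma adjusted p = 0.0478). AAV-HLP-Luc male 005 had the highest Scd2 of all 24 livers. Without that mouse the difference was -1.60 (SE 0.36, limma adjusted p = 0.0543).

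Scd2 in AAV-HLP-mGHR mice stayed above most GHR+/+ mice, at a mean of 1762 ± 894 (SD, n = 6) normalized reads against 432 ± 334. The ranges overlapped only through GHR+/+ female 119, whose 1087 reads exceeded those of AAV-HLP-mGHR females 019 and 024. GHR+/+ minus AAV-HLP-mGHR was -1.82 (SE 2.10, limma adjusted p = 0.578) with voom weights of 0.10 to 0.18 for the GHR+/+ mice. Limma-trend gave -2.12 (SE 0.45, limma adjusted p = 0.0103), and the exact permutation test p = 0.00649. AAV-HLP-Luc and GHR-/- mice, both without receptor, differed by 0.27 (SE 0.50, limma adjusted p = 0.974), and by -0.24 without AAV-HLP-Luc male 005.

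Scd1, the main stearoyl-CoA desaturase of adult liver, did not follow Scd2. Its lowest, median and highest normalized read counts were 195290.0, 341159 and 548345 in GHR+/+ mice and 175212, 339611 and 437900.0 in GHR-/- mice. In the vector groups they were 147921, 154137 and 416248 with luciferase and 43342, 235016 and 374537 with the receptor. All ranges overlapped. GHR+/+ minus GHR-/- was 0.13 (95% interval -0.45 to 0.71, limma adjusted p = 0.753) and AAV-HLP-mGHR minus AAV-HLP-Luc was -0.05 (-1.03 to 0.94, limma adjusted p = 0.967). The first turned to -0.02 without GHR+/+ female 120 and the second to 0.38 without AAV-HLP-mGHR female 024, so neither direction was stable.

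On the FPKM scale (fragments scaled to transcript length and library size), which allows levels to be set side by side between genes, Scd1 was at 1872 ± 761 and Scd2 at 2.09 ± 1.59 in GHR+/+ mice (SD, n = 6). In GHR-/- mice the FPKM of Scd1 was 1692 ± 507 and that of Scd2 27.0 ± 7.79. Scd1 remained the more abundant desaturase in each of the 24 livers. For every 1000 Scd1 reads there were 0.62 to 3.40 Scd2 reads in GHR+/+ livers, 14.3 to 25.4 in GHR-/- livers, 19.4 to 85.5 with luciferase and 4.0 to 17.7 with the receptor vector. These ratios were chosen after the values had been seen and carry no test. GHR+/+ ratios lay below those of every other group, and those with the receptor vector below those with luciferase.

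Scd1 and Scd2 both lie on chromosome 19 of GRCm39 (GENCODE M39), at chr19:44382894-44399154 (-) and chr19:44281613-44295303 (+). Of the 8133 distinct 50-base words in Scd2 transcripts 145, or 1.78%, also occurred in Scd1 transcripts, and how reads that match both genes were counted is not given in the sources used here. The low Scd2 values of the GHR+/+ mice are uncertain to the extent that such reads were assigned to either gene. Acacb and Acaca, and Fads2 and its neighbour Fads1, shared no 50-base word.

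**Figure D2:**
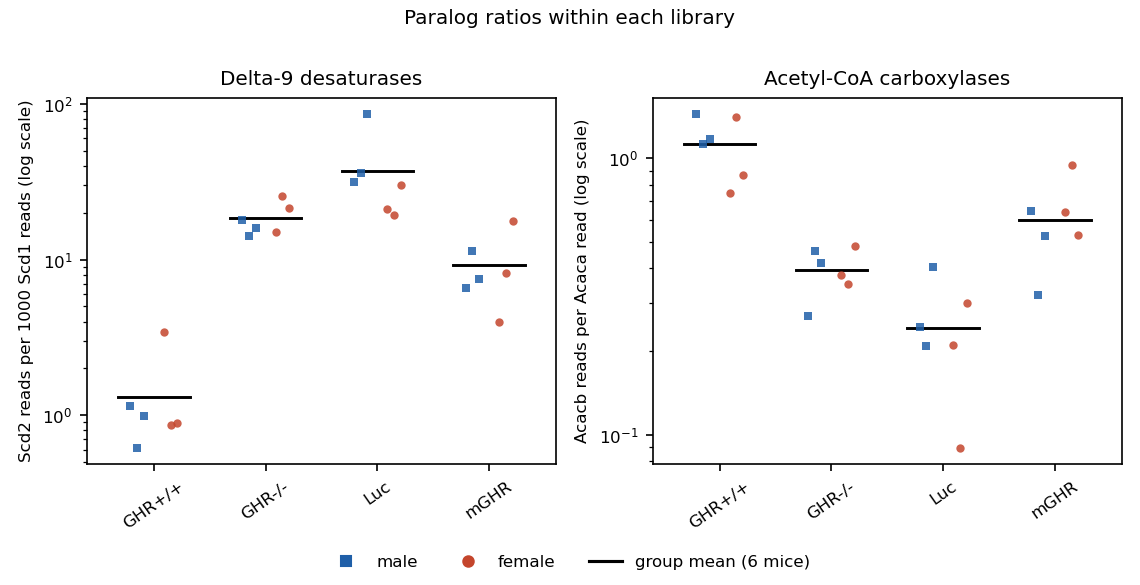
Scd2 reads per 1000 Scd1 reads (left) and Acacb reads per Acaca read (right) in each mouse on log scales, by group, with males as squares, females as circles and the mean of 6 mice as a bar. Scd2 per 1000 Scd1 reads was 0.62 to 3.40 in GHR+/+ and 14.3 to 25.4 in GHR-/- livers, and Acacb per Acaca read was 0.747 to 1.44 and 0.269 to 0.480.

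Acacb makes the malonyl-CoA that holds back fatty acid entry into mitochondria. Its normalized read counts in GHR+/+ mice were 4661, 4887 and 5335 in the males and 2656, 11039 and 3344 in the females. GHR-/- mice had 1571, 1429 and 2090.3 in the males and 1749, 1111 and 2345 in the females. All GHR+/+ mice were higher, the closest values being 2656 and 2345. The difference was 1.48 (SE 0.34, limma adjusted p = 0.0081, exact permutation p = 0.00216). It stayed called when any mouse was left out, between 1.24 and 1.64, the lowest being without GHR+/+ female 120.

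With the receptor vector Acacb was at 1977, 1311 and 2522 normalized reads in the males and 3910.5, 4415 and 1777 in the females. With luciferase it was at 877, 1110.2 and 2078 in the males and 1112, 289 and 1119 in the females. AAV-HLP-Luc male 005 overlapped the receptor group, and AAV-HLP-Luc female 016 had the lowest Acacb of the 24 livers. AAV-HLP-mGHR minus AAV-HLP-Luc was 1.37 (SE 0.54), or 2.58-fold, which did not pass over all genes (limma adjusted p = 0.257), and the exact permutation test of the single gene gave p = 0.00866. The mean with the receptor vector was 49.8% of the GHR+/+ mean. GHR+/+ minus AAV-HLP-mGHR was 0.96 (SE 0.36, limma adjusted p = 0.103) and passed only in the fit over all 24 libraries (0.97, SE 0.28, limma adjusted p = 0.0306). AAV-HLP-Luc minus GHR-/- was -0.86 (SE 0.37, limma adjusted p = 0.951).

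Acaca, the cytosolic carboxylase that commits acetyl-CoA to synthesis, hardly moved between groups. Its mean normalized read count was 4557 ± 1681 with the receptor intact and 4436 ± 1086 in GHR-/- mice, and 4379 ± 963 and 4353 ± 1113 after the luciferase and the receptor vector (SD, n = 6 each). GHR+/+ minus GHR-/- was 0.01, with a 95% interval of -0.46 to 0.49, and AAV-HLP-mGHR minus AAV-HLP-Luc was -0.03 (-0.43 to 0.37). The ratio of the paralogs thus followed Acacb, at 0.747 to 1.44 Acacb reads per Acaca read in GHR+/+ livers, against 0.269 to 0.480 in those of GHR-/- mice, 0.0896 to 0.405 with luciferase and 0.319 to 0.946 with the receptor vector. GHR+/+ and GHR-/- did not overlap in this ratio, whereas the vector groups did, and it too was chosen with the values in view.

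Acly had 11807, 15265 and 18562 normalized reads in GHR+/+ males and 10883, 36949.5 and 13990.4 in GHR+/+ females. In GHR-/- mice the values were 7818, 6141 and 9184 in the males and 8503, 8582 and 11367 in the females. The groups overlapped only through GHR-/- female 134 and GHR+/+ female 119. The difference was 0.95 (SE 0.25, limma adjusted p = 0.0181, exact permutation p = 0.00433), and without GHR+/+ female 120 it was 0.72 (SE 0.17, limma adjusted p = 0.0108).

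Between the vector groups Acly ranged over 6274 to 19866 normalized reads with luciferase (median 8498) and 7518 to 15052 with the receptor (median 11764). The ranges overlapped over most of their width, and the difference was 0.22 (95% interval -0.39 to 0.83, limma adjusted p = 0.754). GHR+/+ minus AAV-HLP-mGHR was 0.58 (SE 0.28, limma adjusted p = 0.183), at a mean with the receptor vector of 63.2% of the GHR+/+ mean.

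Fasn, the synthase that builds palmitate, and Elovl6, the elongase that makes stearate from it, were dominated by 1 liver. Fasn ran from 12939 over a median of 21219.7 to 98866 normalized reads in GHR+/+ mice, and from 12366 over 21421 to 24749 in GHR-/- mice. Elovl6 ran from 3509 over 4357 to 19728 in GHR+/+ mice, and from 2785 over 4713 to 7173 in GHR-/- mice. The highest GHR+/+ value of each was that of female 120, and the medians of the groups were near each other. GHR+/+ minus GHR-/- was 0.51 (SE 0.40, limma adjusted p = 0.379) for Fasn and 0.17 (SE 0.38, limma adjusted p = 0.783) for Elovl6. Without female 120 they were 0.14 and -0.20.

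The vector groups also overlapped in these genes. Fasn had medians of 15659 (8441 to 28324) normalized reads with luciferase and 22738 (11144 to 35123) with the receptor, and Elovl6 of 4248 (1830.4 to 5759) and 5401 (3148 to 7985). The differences of 0.42 (SE 0.33, limma adjusted p = 0.605) and 0.48 (SE 0.29, limma adjusted p = 0.482) were within the spread between mice.

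GHR+/+ female 120 held the highest value of the 24 livers in 8 of the 10 genes, all but Scd2 and Fads2. Relative to the median of the other 5 GHR+/+ mice it was 5.34-fold for Elovl6, 4.79-fold for Fasn, 2.64-fold for Acly, 2.37-fold for Acacb and 1.72-fold for Scd1. Thrsp, a lipogenic protein outside the 10 genes, was 4.76-fold. The coefficient of variation of Fasn was 94.5% in GHR+/+ mice and 27.9% in GHR-/- mice. AAV-HLP-Luc female 016 was lowest in 3 of the genes, and so was GHR-/- male 114.

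Fads2, the delta-6 desaturase of polyunsaturated fatty acids, was the steadiest gene. Its 24 values spanned a 1.89-fold range, from 20689.5 to 39122 normalized reads, against 158-fold for Scd2. GHR+/+ minus GHR-/- was 0.09 (95% interval -0.22 to 0.40, limma adjusted p = 0.677) and AAV-HLP-mGHR minus AAV-HLP-Luc was 0.01 (-0.33 to 0.36, limma adjusted p = 0.973). On the FPKM scale Fads2 was second to Scd1 in GHR+/+ livers with 224 ± 57.1, followed by Acly with 91.0 ± 54.6, Fasn with 84.8 ± 85.4, Srebf1 with 72.4 ± 39.9, Me1 with 62.9 ± 32.9, Elovl6 with 28.8 ± 28.9, Acaca with 7.12 ± 3.01 and Scd2 with 2.09 ± 1.59 (SD, n = 6). Acly, Fasn, Srebf1 and Me1 did not differ beyond their spread in this order, and Acacb was not among the genes of the FPKM table used here.

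Me1, the cytosolic malic enzyme that yields NADPH, ran from 3833 over 8068 to 16159 normalized reads in GHR+/+ mice and from 4615 over 8317 to 14758 in GHR-/- mice. With luciferase the values were 2725, 5878 and 6669.6, and with the receptor vector 2892, 6821 and 12199. All ranges overlapped, and the luciferase group held the lowest maximum. AAV-HLP-Luc minus GHR-/- was -0.84 (SE 0.30, unadjusted p = 0.0161), and GHR+/+ minus GHR-/- was -0.06 (SE 0.34, limma adjusted p = 0.922).

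Srebf1 encodes SREBP-1, the transcription factor through which insulin induces these enzymes. It ran from 7456 over 13052 to 28744 normalized reads in GHR+/+ mice and from 6003 over 8016 to 14207 in GHR-/- mice. GHR-/- female 132 lay above 4 of the 6 GHR+/+ mice. The difference of 0.66 (SE 0.29) did not pass (limma adjusted p = 0.117), although it did with sex as a covariate (limma adjusted p = 0.0419), in a fit over all 24 libraries (0.0459) and without GHR+/+ male 102 (0.0496). Without GHR+/+ female 120 it was 0.46 (limma adjusted p = 0.204), and the exact permutation test gave p = 0.0714. AAV-HLP-mGHR minus AAV-HLP-Luc was 0.20 (95% interval -0.09 to 0.48, limma adjusted p = 0.549).

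**Figure D3:**
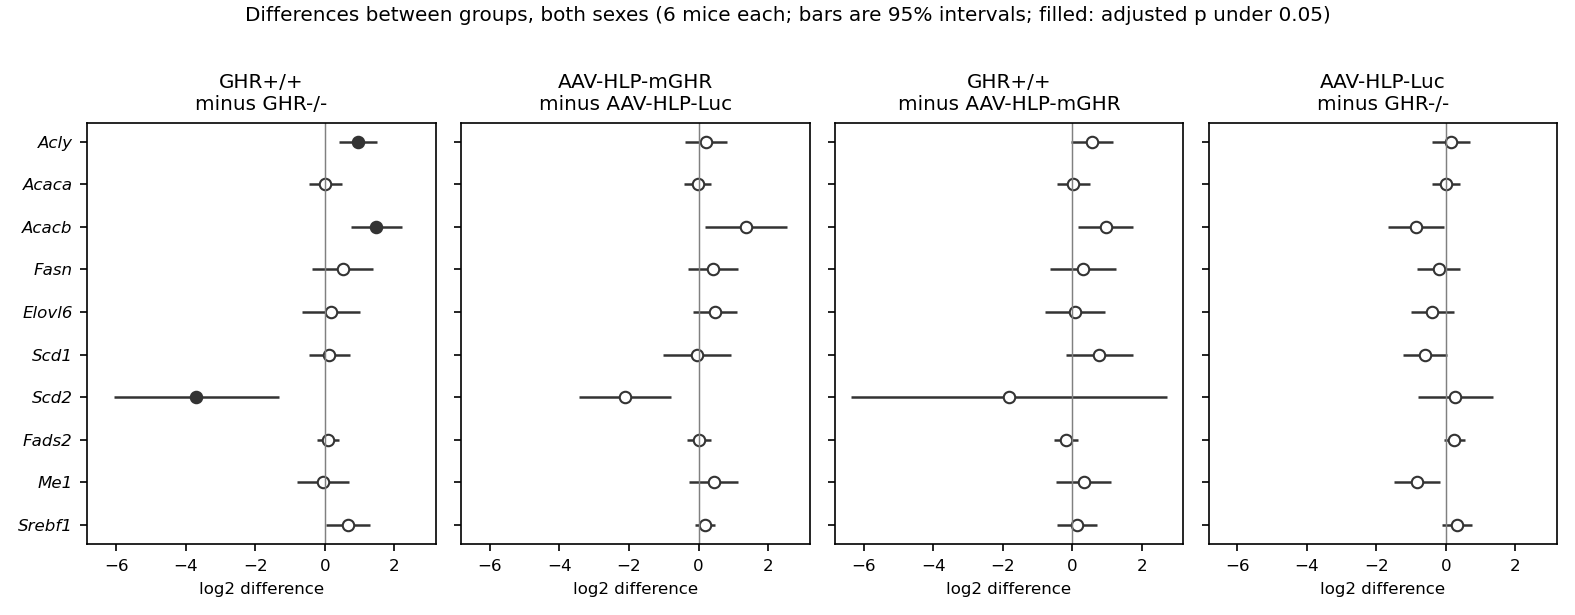
Log2 difference of each gene in 4 comparisons of 6 against 6 mice, with 95% intervals from limma-voom and filled points for limma adjusted p under 0.05. Acacb (1.48), Acly (0.95) and Scd2 (-3.70) are filled in GHR+/+ minus GHR-/-, and no point is filled in the other panels.

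For AAV-HLP-mGHR minus AAV-HLP-Luc none of the 10 genes was called by limma-voom, where 1.55% of all genes were, 1.3% higher and 0.25% lower. Unadjusted p was under 0.05 for 2 of the 10, Scd2 and Acacb, and for 14.8% of all genes. Their median difference was 0.21, against -0.01 over all genes, with 7 of 10 positive. Of the 10 genes 1, Scd2, had groups that did not overlap, as had 1.6% of all genes with the receptor group higher and 0.75% with it lower. GHR+/+ against AAV-HLP-mGHR likewise gave no call among the 10 by limma-voom, beside 11.4% of all genes (5.75% higher and 5.65% lower), and 1 gene, Acacb, at an unadjusted p under 0.05, beside 30.8%. In that comparison all 10 genes overlapped between the groups, where 2.9% of all genes lay wholly higher and 3.3% wholly lower in GHR+/+ mice. By limma-trend 1 of the 10, Scd2, was called, beside 12.7%. These comparisons share groups with GHR+/+ against GHR-/- or with each other, so their values are not independent.

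AAV-HLP-Luc and GHR-/- livers, neither of which had receptor, differed in none of the 10 genes by limma-voom or by limma-trend. None of the 1998 genes tested was called either (0.0%), and 2 of the 10, Acacb and Me1, were among the 3.4% at an unadjusted p under 0.05. Differences ran from -0.86 for Acacb to 0.32 for Srebf1, with a median of -0.11, beside -0.002 over all genes. Scd1 was at -0.60 (95% interval -1.23 to 0.02).

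Within males, GHR+/+ minus GHR-/- called the same 3 genes, beside 19.8% of all genes. Scd2 was at -4.66 (SE 0.42, limma adjusted p = 0.00064), Acacb at 1.56 (SE 0.16, limma adjusted p = 0.0012) and Acly at 0.97 (SE 0.22, limma adjusted p = 0.0206). Me1 was lower in each GHR+/+ male, with 7468, 8669 and 6962 normalized reads against 14758, 9218 and 12474, at -0.64 (SE 0.19, limma adjusted p = 0.0579). In that comparison 2 of the 10 genes lay wholly higher and 2 wholly lower, where 21.2% and 21.7% of all genes did. The Acly call was lost without GHR+/+ male 102 (0.95, limma adjusted p = 0.0712), GHR+/+ male 103 (0.82, limma adjusted p = 0.0656) or GHR-/- male 114 (0.82, limma adjusted p = 0.0515), and in the fit over all 24 libraries (0.97, limma adjusted p = 0.0718). Me1 passed without GHR-/- male 114 (-0.82, limma adjusted p = 0.0233).

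Within females none of the 10 genes was called by limma-voom, beside 5.81% of all genes, and 2 had an unadjusted p under 0.05, beside 24.6%. Scd2 was at -3.03 (SE 0.84, limma adjusted p = 0.0846), and at -3.11 (SE 0.48, limma adjusted p = 0.0173) with limma-trend, which called 6.46% of all genes. Acacb was at 1.41 (SE 0.64, limma adjusted p = 0.227) with every GHR+/+ female above every GHR-/- female. Groups that did not overlap were those of Acacb and Scd2, beside 16.4% of all genes wholly higher and 16.3% wholly lower. The test of the difference between the sexes in this contrast called none of the 10 genes, beside 0.9% of all genes. The lowest p of the 10 was that of Scd1, at -1.25 (SE 0.43, limma adjusted p = 0.212), with GHR+/+ minus GHR-/- at -0.49 in males and 0.76 in females.

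The contrast of the vectors was repeated within each sex. Scd2 was at -2.35 (SE 0.73, limma adjusted p = 0.344) in males and -1.65 (SE 0.35, limma adjusted p = 0.145) in females, and in each sex the groups did not overlap, as for 12.1% of all genes lower in males and 9.66% in females. Without AAV-HLP-Luc male 005 the difference in males was -1.53 (SE 0.33, limma adjusted p = 0.203). Acacb was at 0.56 (SE 0.42, limma adjusted p = 0.578) in males and 2.08 (SE 0.81, limma adjusted p = 0.402) in females. None of the 10 genes was called in either sex by limma-voom, beside 0.35% of all genes in males and 0.45% in females, and none in the test of the difference between the sexes, beside 0.0%. At an unadjusted p under 0.05 there was 1 of the 10 genes in males, beside 11.5% of all genes, and 2 in females, beside 11.6%.

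**Figure D4:**
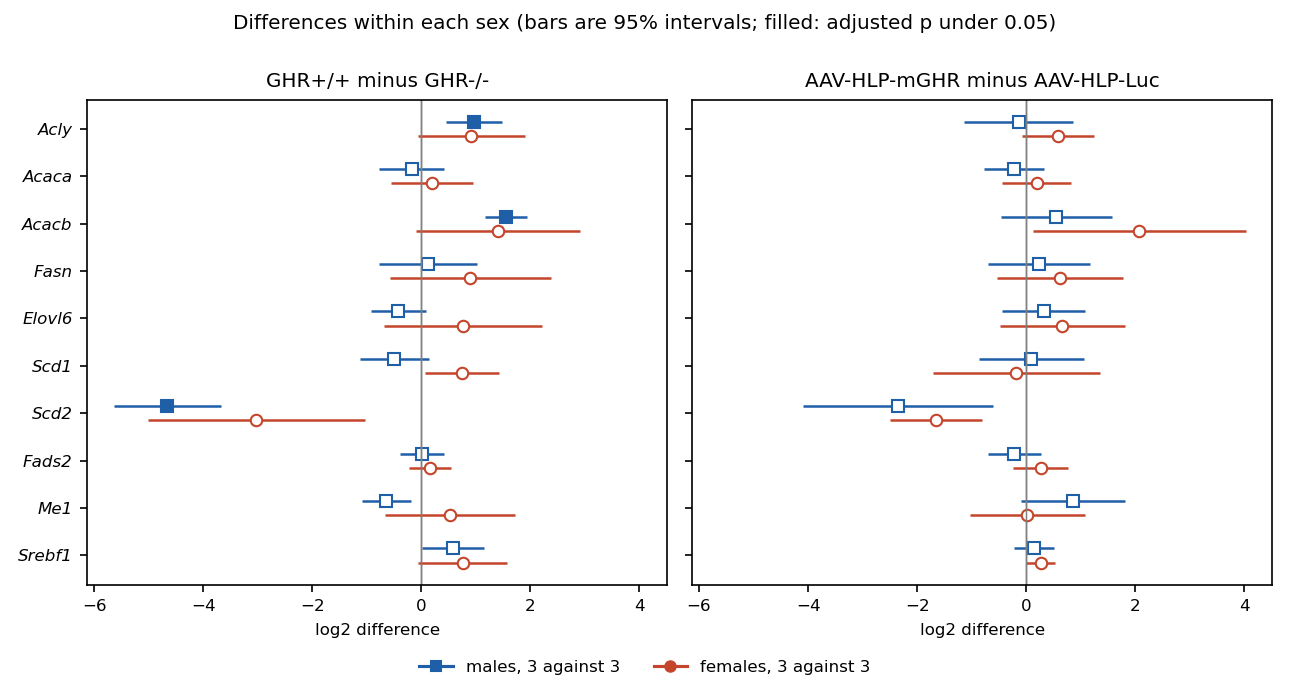
Log2 difference of each gene within males (squares) and females (circles), 3 against 3 mice, with 95% intervals from limma-voom and filled points for limma adjusted p under 0.05. In GHR+/+ minus GHR-/- the filled points are Acly, Acacb and Scd2 in males, and no point is filled for AAV-HLP-mGHR minus AAV-HLP-Luc.

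Males and females were also compared within each group, and none of the 10 genes was called by limma-voom. Over all genes 13.1% were called in GHR+/+ mice, 7.25% higher and 5.85% lower in males (145 and 117 genes, or 94 and 182 with library totals as the scale). In GHR-/- mice it was 0.0501%, after the luciferase vector 0.1% and after the receptor vector 0.05%. At an unadjusted p under 0.05 there were 0 of the 10 genes in GHR+/+ mice (30.7% of all genes), 3 in GHR-/- (8.01%), 2 with luciferase (14.5%) and 0 with the receptor vector (16.4%). Of the 10 genes 1 lay wholly lower in GHR+/+ males, beside 20.2% of all genes wholly higher and 18.7% wholly lower. In GHR-/- males 2 lay wholly higher, beside 6.81% higher and 6.11% lower, and with luciferase 2, beside 14.2% and 13.1%. With the receptor vector it was 0, beside 11.8% and 11.7%. Me1 was higher in each GHR-/- male than in each GHR-/- female, at 0.95 (SE 0.23, limma adjusted p = 0.293). Scd2 was lower in each GHR+/+ male than in each GHR+/+ female, at -1.31 (SE 1.01, limma adjusted p = 0.426), and higher in each AAV-HLP-Luc male than in each female, at 1.71 (SE 0.64, limma adjusted p = 0.317). The AAV-HLP-Luc difference was 0.88 (SE 0.25, limma adjusted p = 0.251) without male 005. Acacb differed by 0.10 between GHR+/+ males and females, and by 0.73 (SE 0.13, limma adjusted p = 0.0497) without female 120.

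Within groups and sexes, the levels of Acly, Acaca, Acacb, Fasn and Elovl6 went together. Pearson's r of log2 counts over the 24 livers, after the mean of each group and sex was subtracted, was 0.73 to 0.90 for these 10 pairs (median 0.79), and 0.60 to 0.84 without GHR+/+ female 120. The other 35 pairs had r of -0.26 to 0.71 (median 0.40), and of -0.25 to 0.62 without GHR+/+ female 120, where the ranges overlapped. The block of Acly, Acaca, Acacb, Fasn and Elovl6 was not set in advance, so its contrast with the other pairs only describes these values. The pairs share libraries and size factors, so the values are descriptive. Scd2 had r of -0.26 to 0.52 to the other 9 genes (median 0.20), Fads2 of 0.16 to 0.49 (median 0.29) and Srebf1 of 0.03 to 0.62 (median 0.36). Without GHR+/+ female 120 these ran from -0.25 to 0.55 for Scd2, -0.05 to 0.38 for Fads2 and -0.07 to 0.40 for Srebf1.

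**Figure D5:**
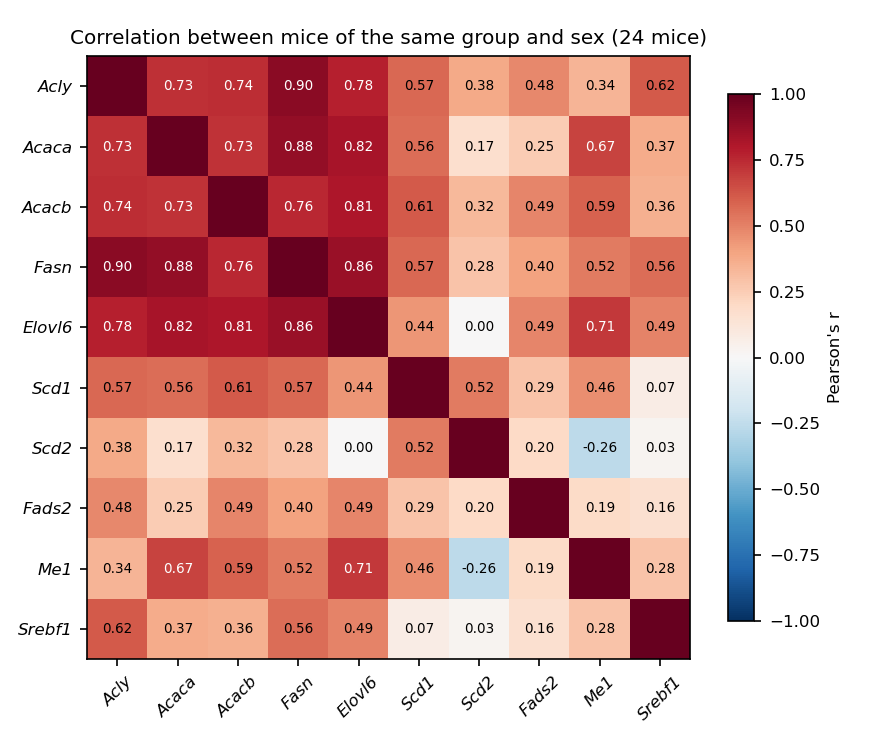
Pearson's r between each pair of the 10 genes over 24 livers, after the mean of each group and sex was subtracted from the log2 normalized counts, on a colour scale from -1 to 1. The block of Acly, Acaca, Acacb, Fasn and Elovl6 lies at 0.73 to 0.90, and the Scd2 row at -0.26 to 0.52.

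Among the other genes used here, Gpam, the first enzyme of glycerolipid synthesis, was the most alike to Fasn (r = 0.90), Acly (0.89) and Acaca (0.81) in this measure. Acacb was most alike to Idh1 (0.87), which encodes the cytosolic isocitrate dehydrogenase, and Elovl6 to Thrsp (0.85). Fads2 was most alike to Fads1, the delta-5 desaturase (0.85), and Me1 to Dlat, a subunit of the pyruvate dehydrogenase complex (0.91). Srebf1 was most alike to Mtss1 (0.72) and Scd2 to Aldh1b1 (0.76). Each gene's r to all other genes had a median within 0.02 of 0, and its 95th percentile was 0.35 to 0.59.

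Genes that supply acetyl-CoA and NADPH were read beside the 10 genes, with 8 of 10 listed genes in the table. In GHR+/+ minus GHR-/- 3 of the 8 were called higher and 0 lower, where 11.9% of all genes were called higher and 12.7% lower. The list median was 0.25, beside 0.01 over all genes. Among them, Pklr, the liver pyruvate kinase, was at 0.98 (limma adjusted p = 0.0099) and Taldo1, of the pentose phosphate pathway, at 0.28 (limma adjusted p = 0.0317). Of 13 regulators held of 21, 2 were called higher and 0 lower, beside the same 11.9% and 12.7%. They were Xbp1 at 0.78 (limma adjusted p = 0.0047) and Mlxipl, the gene of ChREBP, at 0.73 (limma adjusted p = 0.0022).

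In the same comparison, with 12.7% of all genes called lower, 1 of 9 elongation and desaturation partners held of 13 was called, Cyb5a, the cytochrome that passes electrons to the desaturases, at -0.44 (limma adjusted p = 0.0067). Fatty acid oxidation genes were called lower in GHR+/+ livers in 4 of 9, beside that 12.7%, among them Ehhadh (-1.05), Acadm (-0.69) and Acadl (-0.49). In triglyceride genes 1 of 9 held of 17 was called, Pnpla2, the lipase of lipid droplets, at -0.43 (limma adjusted p = 0.0366), and in cholesterol genes 0 of 14 held of 17. In the contrast of the vectors no gene of these 6 lists was called by limma-voom.

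Against AAV-HLP-mGHR, GHR+/+ livers had 3 of the 9 oxidation genes called lower, beside 5.65% of all genes (11.4% in either direction), among them Acadm (-0.70) and Acadl (-0.53). Among the regulators Ppara, the nuclear receptor that drives oxidation, was at -0.75 (limma adjusted p = 0.0026) and Xbp1 at 0.64 (limma adjusted p = 0.0257), and among the partners Cyb5a was at -0.33 (limma adjusted p = 0.0383). No supply, triglyceride or cholesterol gene was called there, nor were genes of any list between AAV-HLP-Luc and GHR-/-.

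Some markers of cell types were called in the same contrast as Scd2, Acacb and Acly, where 24.6% of all genes were called and 12.7% were called lower. Of the 6 hepatocyte markers 1 was called, Ttr, the thyroid hormone carrier transthyretin, which was lower in GHR+/+ than in GHR-/- livers (-0.49, limma adjusted p = 0.0114). Of the 3 Kupffer cell and leukocyte markers held 1 was called, Cd74, of antigen-presenting cells (-1.25, limma adjusted p = 0.0149). Cd5l was at -0.21 and Clec4f at -0.13, neither called, and in males at 0.29 and 0.14 beside -1.32 for Cd74. In females Cd5l was called lower (-0.72, limma adjusted p = 0.0451), beside 2.6% of all genes. All 3 held markers had an unadjusted limma p under 0.05 in females (median difference -0.72), beside 24.6% of all genes. With the sexes pooled, Hbb-bs, of red cells, was also lower in GHR+/+ livers (-0.56, limma adjusted p = 0.0123). The summed counts of Clec4f, Cd5l and Cd74, the 3 of 6 listed that were held, were 9350 to 14673 in GHR+/+ and 10222 to 28741 in GHR-/- mice, 11458 to 23565 after the luciferase vector and 9197 to 30738 after the receptor vector. Of the endothelial and stellate markers 1 of 6, Dcn, was held, of the erythroid markers 1 of 3, and of the adipocyte markers none of 4. The part of other cells in the differences of the 10 genes was not tested, and in bulk tissue fewer cells of a type and less RNA per cell cannot be told apart.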

How the data were processed

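The authors prepared stranded poly(A) libraries, aligned the reads with Hisat2 (mm39), obtained a read count per gene from featureCounts 1.5.0-p3 and derived FPKM. The 9 deposited tables hold the authors' gene set comparisons (enrichment scores, p-values, set sizes and leading-edge genes) and were not used. The count of reads and the FPKM per mouse were read from the authors' supplementary tables, 1999 and 1301 of 56748 genes, all abundant (lowest mean count 1123). Results beyond them were not analysed here. Symbols came from the authors' tables (1707) or GENCODE M39 (292), coordinates from GENCODE M39 on GRCm39.

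Counts were scaled by median of ratios and fitted with limma 3.58.1 (voom) in R 4.3.3, each comparison on its own libraries with the sexes pooled as in the study, Benjamini-Hochberg adjusted over all genes tested, at 0.05. The fits were first tested on simulated counts with the same spread for every gene, which does not cover genes as variable as Fasn and Scd2. In tests of the difference between the sexes, 42% of simulated 2-fold changes were recovered for GHR+/+ against GHR-/- and 37% for the vectors. Exact permutation tests were 2-sided and were added after the voom weights of Scd2 had been seen. Correlations used normalized counts plus 1, with 10 as an alternative, and ratios used unscaled counts with nothing added. Other alternatives were library totals, limma-trend, at least 10 counts in every library, 1 fit over all 24 libraries, a sex covariate and leaving out each mouse. The members and lists were chosen with earlier results of these data known. Named genes were the 10 members, Ghr, called list genes (up to 4 a list) and the genes most alike to each member, of which some are not reported here. Python 3.11.15 was used with pandas 2.3.3, numpy 2.4.6, matplotlib 3.10.9 and scipy 1.17.1.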

Additional observations from a re-analysis of the deposited data

Results flagged for a closer look

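Among 40 groups of 6 livers checked (10 genes in 4 groups), 2 held a mouse whose gap to its nearest neighbour exceeded the critical share of 0.625 of the group's range on the log2 scale, where chance flags about 1 group in 20. Elovl6 in GHR+/+ female 120 was at 19728.4 normalized reads, the highest of its group, with a gap of 0.767 of the range. Scd1 in AAV-HLP-mGHR female 024 was at 43342.2 normalized reads, the lowest of its group, with a gap of 0.721.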

How the results depend on the processing

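The 10 genes gave 2 to 3 calls in GHR+/+ against GHR-/- when each mouse was left out, the lost call being Scd2, 2 to 3 in males, and 0 to 1 in male against female GHR+/+, where Acacb was called without female 120. The other comparisons stayed at 0 in each such fit. In GHR+/+ against GHR-/-, Srebf1 was gained as Scd2 was lost without GHR+/+ male 102, and also in 1 fit over all 24 libraries. With the sex covariate Srebf1 was called beside Acacb, Acly and Scd2, at 3 higher and 1 lower. A count of 0 became 1 in the contrast of the vectors in 1 fit over all 24 libraries and with the sex covariate (Scd2 lower), for its males in the fit over all libraries (Scd2 lower), for GHR+/+ against AAV-HLP-mGHR with limma-trend (Scd2 lower) and over all libraries (Acacb higher), and for GHR+/+ against GHR-/- females with limma-trend (Scd2 lower). In each, the cause was not tested.

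Differences near 0 changed sign. Acaca in GHR+/+ against GHR-/- was -0.026 under library totals. When a mouse was left out, GHR+/+ minus GHR-/- ran from -0.15 to 0.10 for Acaca, -0.20 to 0.29 for Elovl6, -0.020 to 0.29 for Scd1, -0.00065 to 0.15 for Fads2 and -0.25 to 0.16 for Me1. AAV-HLP-mGHR minus AAV-HLP-Luc ran from -0.13 to 0.068 for Acaca, -0.25 to 0.38 for Scd1 and -0.066 to 0.11 for Fads2. GHR+/+ minus AAV-HLP-mGHR ran from -0.13 to 0.14 for Acaca, -0.070 to 0.51 for Fasn, -0.30 to 0.19 for Elovl6 and -0.069 to 0.32 for Srebf1. AAV-HLP-Luc minus GHR-/- ran from -0.076 to 0.26 for Acly, -0.10 to 0.084 for Acaca and -0.24 to 0.49 for Scd2, and male minus female GHR+/+ from -0.29 to 0.73 for Acacb.

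Over all genes the calls moved from 31 to 48 (the contrast of the vectors) and from 228 to 345 (GHR+/+ against AAV-HLP-mGHR) with the sex covariate, and when a mouse was left out lay at 19 to 46 and 115 to 320, and at 18 to 210 in place of 262 for male against female GHR+/+. GHR+/+ against GHR-/- then gave 198 to 370 in place of 396 in males and 21 to 78 in place of 116 in females, the vectors 0 to 3 in place of 7 in males and 1 to 17 in place of 9 in females, and sex by GHR+/+ against GHR-/- 7 to 42 in place of 18. In 1 fit over all libraries, female GHR+/+ against GHR-/- went from 116 to 72, the vectors in males from 7 to 44 and in females from 9 to 14, and male against female AAV-HLP-Luc from 2 to 39 and AAV-HLP-mGHR from 1 to 4. Limma-trend gave 13 for the vectors in males and 47 for sex by GHR+/+ against GHR-/-. Library totals moved the median of all genes from -0.01 to -0.18 in male against female AAV-HLP-Luc. No paired analysis was possible because each mouse has its own number. Scd2 in GHR+/+ mice had the lowest group mean of the 10 genes, with 225 to 1087 normalized reads.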
